A study of Equus caballus with 3 samples.

Results

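The osteoblast lineage genes examined here were 9 named genes, *RUNX2*, *SP7*, *DLX5*, *ALPL*, *IFITM5*, *IBSP*, *SPP1*, *SPARC* and *BGLAP*, which were looked up by symbol in the single-cell count matrices of equine mesenchymal stromal cells (MSCs). Of these, 8 had a row in all 3 matrices, which together listed 29927 genes, and *BGLAP* had no row and was not analysed here. The cells came from a single healthy Warmblood mare aged 10 years, with adipose tissue as the first source (AT), bone marrow as another (BM) and circulating blood (PB) as the last, were grown in culture without any differentiation stimulus named in the labels, and were captured after the second passage on a 10X Genomics droplet platform. Each source was 1 library of female cells, so that source and library cannot be told apart, and no test across cells was run. The source of each library follows its deposited title, whereas the deposited source name gives mononuclear cells of blood for all 3.

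Osteoblasts, the cells that build bone, arise from mesenchymal progenitors under the control of transcription factors. *RUNX2* is the factor needed to enter the lineage, *SP7* (osterix) acts after it, and *DLX5* is a homeobox factor upstream of both. Committed cells make tissue-nonspecific alkaline phosphatase (*ALPL*), which removes the mineralisation inhibitor pyrophosphate, and *IFITM5* (BRIL), a membrane protein of the interferon-induced transmembrane family that is known for its restriction to bone. They then secrete matrix proteins such as bone sialoprotein (*IBSP*), osteopontin (*SPP1*), osteonectin (*SPARC*) and osteocalcin (*BGLAP*). MSCs are commonly tested for the ability to form such cells in culture.

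Barcodes with 2500 to 15000 unique molecular identifiers (UMIs, each marking a captured molecule) and at most 3% mitochondrial UMIs were kept as cells, which left 5403 AT-, 5580 BM- and 5318 PB-derived MSCs with a median of 6874.5 to 7750 UMIs. Levels are counts per 1000000 (CPM), that is, the UMIs of a gene relative to all UMIs summed over the kept cells of a source. They are counts of 3′ ends, so that a longer transcript does not yield more UMIs. The ranges in brackets are exact 95% intervals (Poisson for CPM, Clopper-Pearson for shares of cells) and cover counting error only. Of 7 stromal markers all were found in each source, with summed levels of 10422, 13100 and 17527 CPM in AT, BM and PB that were mostly vimentin (*VIM* 8751, 11825 and 16594 CPM). *PDGFRA* was low (11.01, 11.8 and 8.24 CPM), and *THY1* ran from 665 CPM in AT and 531 in BM to 90.5 in PB. The 7 haematopoietic markers summed to 7.03, 11.2 and 5.02 CPM, nearly all *CD68* (6.88, 11.03 and 4.85 CPM), with the leucocyte gene *PTPRC* at 0, and 5 endothelial genes summed to at most 0.192 CPM. The part of these markers in the results was not tested.

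The libraries shared barcodes. The AT matrix held 5788 barcodes that were also in the PB matrix, among them all 5318 kept PB barcodes, while AT and BM shared 106 and BM and PB 57. Most of the shared AT barcodes were small: 5716 of the 6155 AT barcodes with fewer than 2500 UMIs were found in another library, and 119 of the kept AT barcodes were. In the 5284 kept barcodes found in AT alone the level of *SP7* was 0.128 CPM against 0.2001 in all kept AT barcodes, of *DLX5* 0.153 against 0.300, of *RUNX2* 0.842 against 0.825, of *SPP1* 0.689 against 0.700 and of *SPARC* 2672 against 2676, *IBSP* was at 0 in both, and *ALPL* and *IFITM5* are given with their levels below.

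*ALPL* differed between all sources beyond counting error. Its level was 2.88 CPM in AT (2.37–3.45), 96.0 CPM in BM (92.9–99.0) and 326 CPM in PB (320–331), from 115, 3861 and 13551 UMIs. PB was highest and AT lowest, and no interval touched another. The level in PB was 3.39-fold that in BM (3.27–3.52) and 113-fold that in AT (94.2–137), and the level in BM was 33.4-fold that in AT (27.7–40.5). On the scale of log2(CPM + 1) these differences from AT were 6.40 and 4.64, and with all barcodes of at least 500 UMIs, which adds the small AT barcodes shared with PB, they were 3.25 and 1.503. Ranked by UMIs, *ALPL* was gene 384 of 17213 with a UMI in PB, gene 1456 of 17915 in BM and gene 9253 of 17242 in AT. In AT, 37 of its 115 UMIs lay in the 119 kept barcodes found in another library (46.2 CPM), and the level in the barcodes found in AT alone was 1.99 CPM (1.57–2.48).

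The transcription factors followed the same division between AT and the other sources. *SP7* had 0.2001 CPM in AT (0.0864–0.394), 23.7 in BM (22.2–25.2) and 33.9 in PB (32.2–35.8). It was thus near the floor in AT, with 8 UMIs in 8 cells, and somewhat higher in PB than in BM (1.43-fold, 1.32–1.56). *DLX5* had 0.300 CPM in AT (0.155–0.524), 59.2 in BM (56.9–61.7) and 41.0 in PB (39.1–43.0). Here BM was the highest source, 1.44-fold above PB (1.36–1.54), and of the 12 UMIs in AT 6 were in barcodes also found in another library. *RUNX2* was low everywhere, with 0.825 CPM in AT (0.568–1.16), 4.15 in BM (3.54–4.83) and 8.96 in PB (8.08–9.92), again without overlap. In the deposited annotation *RUNX2* lies on the plus strand of chromosome 20, where *SUPT3H* is annotated on the minus strand, and *SUPT3H* had the reverse order of levels (23.8, 11.7 and 6.80 CPM). The authors left stretches where exons of genes on opposite strands overlap out of the counts. The part of this in the levels of either gene was not tested.

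*IFITM5* did not share the near absence from AT. It had 12.5 CPM in AT (11.4–13.6), 13.4 in BM (12.3–14.6) and 35.1 in PB (33.3–36.9), from 499, 541 and 1461 UMIs. AT and BM overlapped, with a ratio of BM over AT of 1.08 (0.952–1.22), and PB was 2.61-fold above BM (2.36–2.89) and 2.81-fold above AT (2.54–3.12). In AT, 486 of the UMIs were in barcodes found in AT alone (12.4 CPM, 11.3–13.6). No gene of the same families on the list fixed for comparison (*IFITM1*, *IFITM2*, *IFITM3*, *IFITM10*, *ALPI*) had a row by symbol.

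Of the matrix genes, *IBSP* was almost restricted to BM. No UMI was found in AT, where the floor of 3 UMIs over all kept cells is 0.0750 CPM and the exact upper limit 0.0923 CPM, against 32.3 CPM in BM (30.5–34.1) and 0.673 CPM in PB (0.447–0.972). BM was 48.0-fold above PB (33.04–72.5) and at least 430-fold above AT, and PB was at least 8.97-fold above AT, both against that floor. *SPP1* had 0.700 CPM in AT (0.465–1.01), 16.6 in BM (15.4–17.9) and 10.9 in PB (9.88–11.9), with BM 1.53-fold above PB (1.35–1.73). *SPARC*, which stromal cells of many tissues make, was among the 82 genes with the most UMIs in each source. It reached 2676 CPM in AT (2660–2692), 2286 in BM (2271–2301) and 2562 in PB (2546–2577), so that the only member with AT as its highest source was also the one that nearly every cell contained (at least 99.7% of cells in each source).

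**Figure D1:**
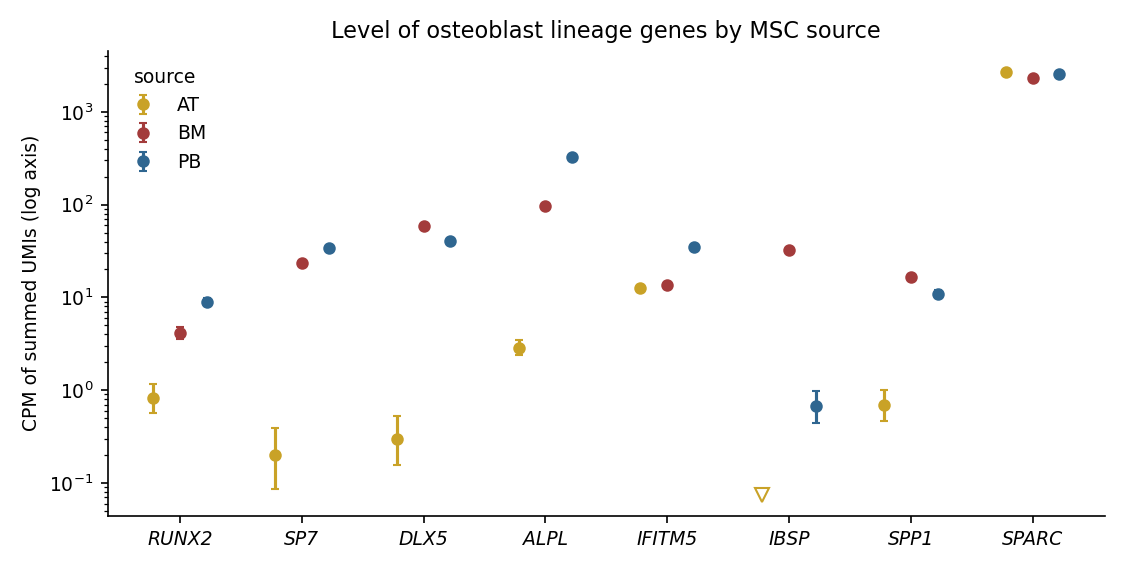
Level of the 8 osteoblast lineage genes with a row, in CPM of the UMIs summed over kept cells (log axis), in AT-, BM- and PB-derived MSCs. Bars are exact 95% Poisson intervals, many smaller than the points, and the open triangle marks *IBSP* in AT, which had no UMI, at the level of 3 UMIs (0.0750 CPM). *SP7*, *DLX5*, *ALPL*, *SPP1* and *RUNX2* lie at 2.88 CPM or less in AT, *IFITM5* has overlapping bars in AT and BM, and *IBSP* is at 32.3 CPM in BM against 0.673 in PB.

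Differences were also counted on the scale of log2(CPM + 1), with a difference of at least 1 taken as past 2-fold. Between PB and BM, 3 of 8 members passed, *ALPL* (1.75) and *IFITM5* (1.32) towards PB and *IBSP* (−4.31) towards BM, where 6.47% of the 16021 genes tested passed in either direction, 1.82% higher in PB and 4.65% higher in BM. *RUNX2* fell just short (0.95, 0.64 to 1.26) and passed with TMM scaling (1.15), and its ratio of CPM without the added 1 was 2.16 (1.79–2.61). Between PB and AT, 6 of 8 members passed, all higher in PB, against 8.25% of 15879 genes (4.59% higher in PB and 3.66% higher in AT). Between BM and AT, 6 of 8 passed, all higher in BM, against 8.57% of 16105 genes (6.46% higher in BM and 2.1% higher in AT). Among genes with at least 10 CPM in either source, closer to the members' own levels, 7.95%, 9.82% and 10.8% passed in these comparisons, and 3, 5 and 5 members did. This limit left *RUNX2* out of every comparison (at most 8.96 CPM) and *IBSP* out of that between PB and AT (0.673 and 0 CPM), so fewer than 8 members were counted. With 25 CPM in place of 1 added before the logarithm, which shrinks the differences of low genes, 2, 3 and 3 members passed. Of all genes, 36 were then past 2-fold higher in PB and 91 in BM, against 292 and 745 with 1 CPM added. Between PB and AT, 108 were higher in PB and 71 in AT, against 729 and 581. Between BM and AT, 151 were higher in BM and 57 in AT, against 1041 and 339. *IFITM5* then lost its call between PB and BM (0.64), *IFITM5* (0.68), *RUNX2* (0.40) and *SPP1* (0.48) lost theirs between PB and AT, and *SP7* (0.95), *RUNX2* (0.17) and *SPP1* (0.69) theirs between BM and AT. With all barcodes of at least 500 UMIs, 5 members passed between BM and AT. Of all genes, 905 were past 2-fold higher in BM and 312 in AT at this setting. The median difference of the 8 members was 0.33 for PB minus BM, 2.63 for PB minus AT and 3.87 for BM minus AT, where the medians over all genes tested were −0.14, 0.03 and 0.16. All 3 comparisons share libraries, and the members were chosen as osteoblast genes with earlier results of these data known.

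How evenly the genes past 2-fold were split between directions depended on the scaling, while BM stayed the side with more of them. With totals of the kept cells as the scale, 28.2% of the genes past 2-fold between PB and BM were higher in PB, and 44.7% with TMM factors, and between BM and AT 75.4% were higher in BM, and 58.9% with TMM factors. With TMM factors the medians over all genes moved to −0.01 (PB minus BM) and 0.0036 (BM minus AT). *IFITM5* in BM minus AT changed sign between these scalings, from 0.10 to −0.16, and no member past 2-fold did.

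The share of cells with each gene was counted next. Each kept cell was thinned at random to 2500 UMIs, so that shares of cells with a UMI are at equal depth. In AT, 0.851% of the thinned cells had *ALPL* (0.624–1.13), in BM 19.7% (18.7–20.8) and in PB 49.7% (48.4–51.1), and without thinning the shares were 1.89%, 36.2% and 76.1%. *IFITM5* was found in 2.96% (2.53–3.45), 3.05% (2.61–3.53) and 6.81% (6.14–7.52) at equal depth. *SP7* was in 0.0370%, 6.0% and 8.27% of cells, and *DLX5* in 0.111%, 13.9% and 9.10%. *SPP1* had overlapping shares in BM (2.54%, 2.15–2.99) and PB (2.44%, 2.05–2.90) although the CPM differed, and without thinning the share was lower in BM (5.16%) than in PB (6.79%). *SPARC* likewise had overlapping shares in AT (99.2%, 99.0–99.4) and PB (99.3%, 99.1–99.5). *IBSP* was in 3.84% of BM-derived MSCs (3.35–4.37), in 4 cells in PB (0.0752%, 0.0205–0.192) and in none of 5403 cells in AT, which allows a share of cells with a UMI at this depth of up to 0.0555% (3 cells), or 0.0683% by the exact interval, and does not limit the share of cells that express the gene. No cell type known to lack these genes was sorted into the libraries, so that UMIs from free RNA were not measured.

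**Figure D2:**
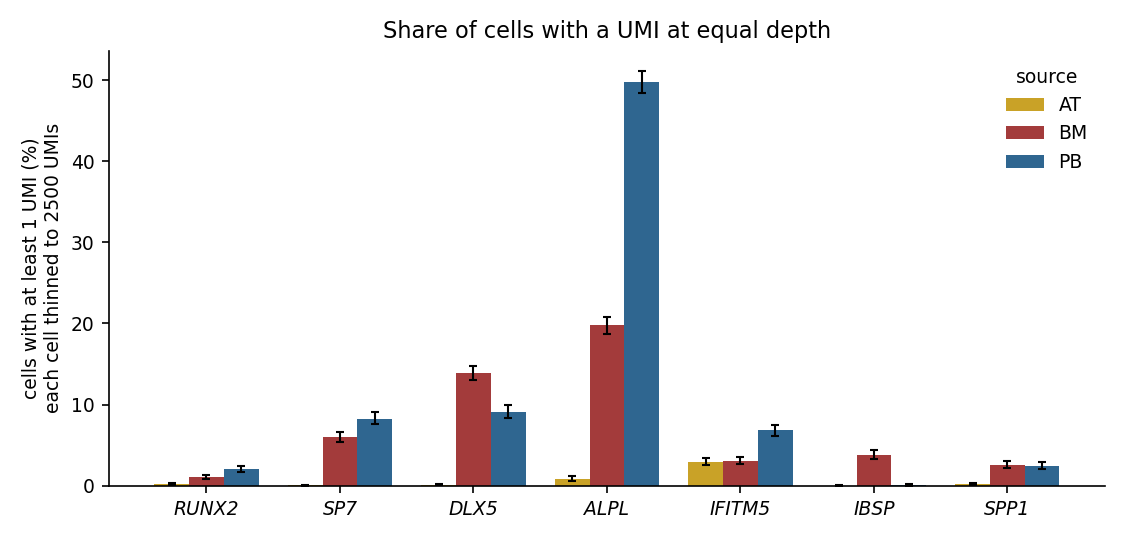
Share of kept cells with at least 1 UMI of each gene after every cell was thinned to 2500 UMIs, in %, with exact 95% Clopper-Pearson intervals. *SPARC*, found in 97.4% to 99.3% of thinned cells, is left out. *ALPL* reached 49.7% in PB and 19.7% in BM, and no other gene plotted passed 13.9% in any source.

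The UMIs of *IBSP* and *SPP1* were concentrated in few cells. In BM, all 1299 *IBSP* UMIs were in 311 cells, and 30 cells with at least 10 UMIs held 526 of them (40.5%), with up to 47 in a cell. At least 10 *SPP1* UMIs were held by 12 cells in BM and 2 in PB, and 6 to 9 by 10 and 1. The Poisson intervals of CPM and of its ratios do not cover this clustering, so they are too narrow for such genes. They are also too narrow for other members whose counts vary more than random capture gives, such as *ALPL*, *SPARC* and *IFITM5* in PB, given next. The variance of the thinned counts over their mean was 6.26 for *IBSP* and 4.76 for *SPP1* in BM, against 1.27 for *SPP1* in PB and 1.42 and 1.43 for *ALPL* in BM and PB. A value near 1 is what random capture of an evenly spread transcript gives, but the value also nears 1 as the level falls. Genes of unlike level are thus not ranked by it, and *SPARC*, in nearly every cell, had 1.76 to 2.11. *IFITM5* in PB had 1.77, with 5 cells that held at least 10 UMIs and a highest cell of 43. *RUNX2* and *DLX5* in PB had 1.07 and 1.04, at means of 0.0212 and 0.0972 UMIs a thinned cell. At means this low a value near 1 does not show an even spread. Counting the 7 members other than *SPARC*, 2 or more were found in the same thinned cell in 1 AT-derived MSC (0.0185%), in 556 BM-derived MSCs (9.96%) and in 783 PB-derived MSCs (14.7%). With 3 or more the shares of BM (2.13%, 1.77–2.55) and PB (1.86%, 1.52–2.26) overlapped. Such counts rise with the shares of the single genes, against which they were not set, so they do not compare how far members were found together.

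Whether *ALPL* and *IFITM5* were found in the same cells was asked at equal depth, by comparing the number of cells with both with the number given by the product of their shares. In PB, 223 of 5318 cells had both and 180 were expected, a ratio of 1.24 (1.08–1.41). *IFITM5* was in 8.43% of the cells with *ALPL* (7.40–9.56) and in 5.20% of those without (4.39–6.11). The share was 7.73% of cells with 1 *ALPL* UMI (6.44–9.19) and 7.94% with 2 (6.02–10.2). It was 10.96% with 3 (7.62–15.1) and 13.0% with 4 or more (8.02–19.6), and the intervals of these classes overlapped. Seen from the other gene, *ALPL* was in 61.6% of cells with *IFITM5* (56.4–66.6) and 48.8% of cells without (47.4–50.3). Thus most cells with *ALPL* had no *IFITM5* UMI at this depth (2421 of 2644), and 139 cells had *IFITM5* alone. In the cells called G1 the ratio was 1.15 (0.987–1.33), and in the 4575 cells with at least 5000 UMIs thinned to 5000 it was 1.07 (0.968–1.18). Under both the interval includes 1. Intervals of these ratios, here and below, take the count of cells with both genes as Poisson. That is wider than with both shares held fixed, so an interval that includes 1 does not show that pairing was absent. The highest ratio possible also falls as more cells hold *ALPL*, so ratios at unlike depth are not directly comparable.

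In BM, 53 of 5580 cells had both genes where 33.6 were expected, a ratio of 1.58 (1.18–2.06). *IFITM5* was in 4.81% of cells with *ALPL* (3.62–6.24) and in 2.61% of cells without (2.17–3.12). The ratio was 1.63 (1.33–1.96) in deeper cells thinned to 5000 UMIs, 1.32 (0.9748–1.74) in the cells called G1 and 1.69 (0.924–2.83) with *ALPL* counted from 2 UMIs, and the last 2 intervals include 1. By *ALPL* UMIs the share with *IFITM5* was 4.70% with 1, 4.50% with 2, 9.62% with 3 and 0 of 20 cells (exact upper limit 16.8%) with 4 or more, without a steady rise. In AT, 1 cell had both where 1.36 were expected (ratio 0.734, 0.0186–4.09). That cell was not among the barcodes found in AT alone, in which no cell had both and 0.837 were expected, so that pairing was not measurable in AT.

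**Figure D3:**
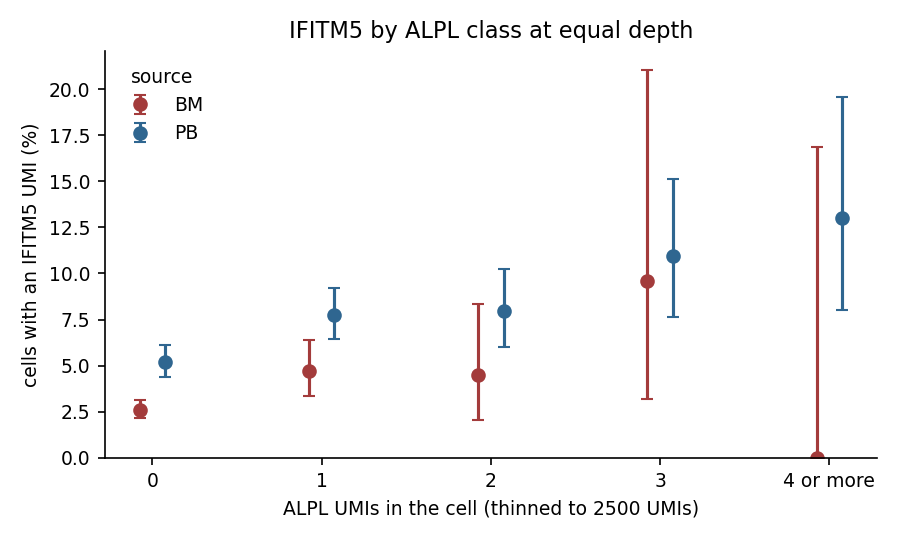
Share of BM- and PB-derived MSCs with an *IFITM5* UMI, in %, by the number of *ALPL* UMIs in the same cell, with each cell thinned to 2500 UMIs and exact 95% Clopper-Pearson intervals. In PB the share was 5.20% without *ALPL* and 13.0% with 4 or more UMIs, and in BM the classes with 3 and with 4 or more *ALPL* UMIs held 52 and 20 cells, so that their intervals are wide.

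The same count was made over all pairs of the 7 members other than *SPARC*, which was in nearly every cell and so could not depart from 1. Of the pairs with at least 5 expected cells, 12 of 16 in BM had an interval wholly above 1 and 1 of 14 in PB did (*ALPL* with *IFITM5*), none lay wholly below 1, and no pair in AT reached 5 expected cells. The counts of BM and PB are over unlike pairs, since *IBSP* was in 4 thinned cells in PB and no pair with it reached 5 expected cells there. The highest ratio possible also differs with the shares of the genes in each source. Over all pairs of genes detected in as many cells as the members, with the same minimum, 2.04% lay wholly above 1 and 1.42% wholly below in BM (7523 genes), and 1.44% and 1.04% in PB (12503 genes). Among the member pairs with at least 5 expected cells, the highest ratio in BM was that of *IBSP* and *SPP1*. They were found together in 36 cells where 5.45 were expected (6.61, 4.63–9.15). *SP7* and *IBSP* followed (3.19, 2.29–4.33), then *IFITM5* and *IBSP* (2.61, 1.52–4.17), *ALPL* and *IBSP* (2.20, 1.78–2.70) and *IFITM5* and *SP7* (1.96, 1.20–3.03). *IFITM5* and *SPP1*, below that minimum, were together in 14 cells where 4.33 were expected (3.24, 1.77–5.43). In PB, *SP7* and *DLX5* were together in 40 cells where 40.0 were expected (0.999, 0.714–1.36), whereas in BM they were together in 72 where 46.5 were expected (1.55, 1.21–1.95). Over the BM cells called G1, 8 pairs kept an interval above 1 (1.37% of all such gene pairs did), among them *IBSP* with *SPP1* (5.29, 3.68–7.35), *SP7* (2.64, 1.89–3.596) and *ALPL* (1.84, 1.48–2.26). The other 4 of the 12 lost it, *ALPL* with *IFITM5* as given above, *IFITM5* with *SP7* (1.58, 0.938–2.50), *SP7* with *SPP1* (1.57, 0.878–2.59) and *IBSP* with *DLX5* (1.20, 0.859–1.62), and in PB no pair had an interval above 1. The difference between BM and PB in these ratios was not tested, since each is 1 library.

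**Figure D4:**
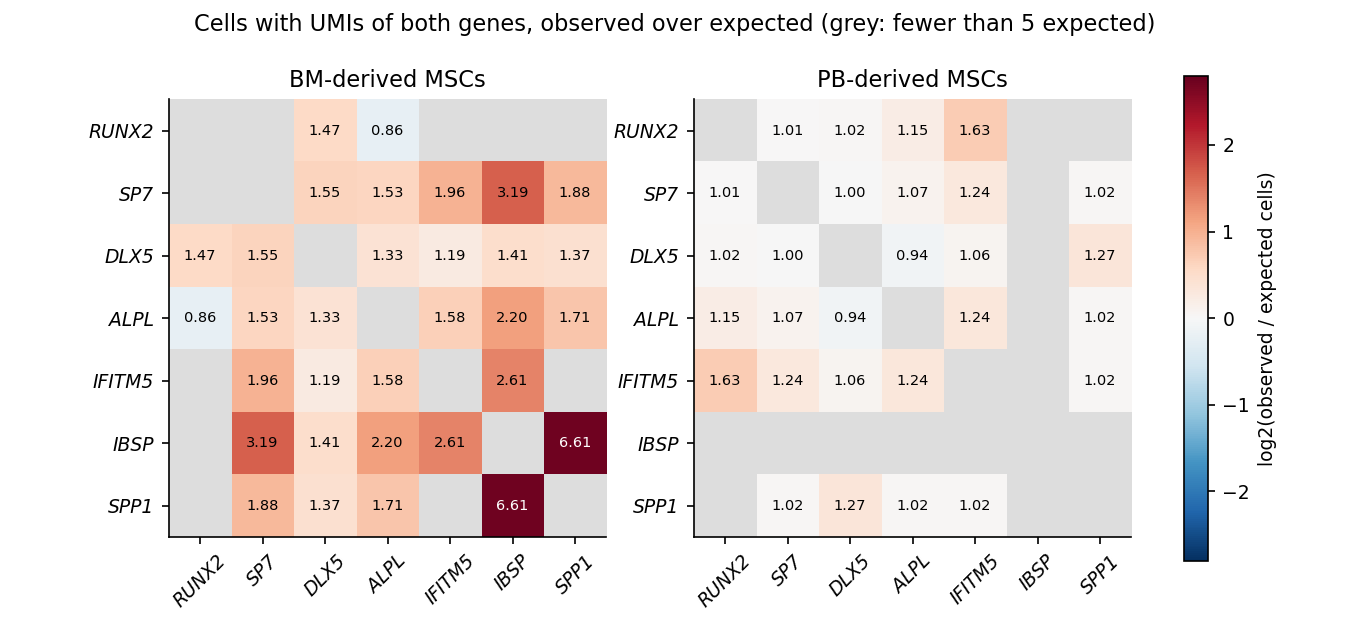
Number of cells with UMIs of both genes over the number expected from their shares, at 2500 UMIs a cell, for pairs of 7 members in BM- and PB-derived MSCs. Colour is log2 of the ratio printed in each square, and grey marks pairs with fewer than 5 expected cells. In BM the pair *IBSP* and *SPP1* reached 6.61, and in PB the values lay between 0.939 and 1.63.

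The BM cells with *IBSP* were described further, a choice made after the values were seen. At equal depth 214 BM-derived MSCs had an *IBSP* UMI. *SPP1* was in 16.8% of them (12.1–22.5) and in 1.98% of the other 5366 cells (1.62–2.38). *ALPL* was in 43.5% (36.7–50.4) against 18.8% (17.8–19.9), *SP7* in 19.2% (14.1–25.1) against 5.48% (4.89–6.12) and *IFITM5* in 7.94% (4.70–12.4) against 2.85% (2.42–3.33). *DLX5* was in 19.6% (14.5–25.6) against 13.6% (12.7–14.6), where the intervals of the shares overlapped. Its level was higher in the cells with *IBSP*, without overlap (101 CPM, 75.8–132, against 64.0 CPM, 59.8–68.5). Osteomodulin (*OMD*), a proteoglycan of mineralised matrix, was in 26.6% (20.8–33.1) against 12.04% (11.2–12.9), and *CDH11*, an osteoblast cadherin, in 42.5% (35.8–49.4) against 22.8% (21.7–24.0). Intervals of the shares overlapped for the gap junction gene *GJA1* (72.9%, 66.4–78.7, against 68.8%, 67.6–70.1), the ligand gene *TNFSF11* (9.35%, 5.80–14.1, against 8.74%, 7.998–9.53), the homeobox gene *MSX1* (1.402%, 0.290–4.04, against 3.06%, 2.61–3.55) and *MGP*, an inhibitor of mineralisation (2.34%, 0.763–5.37, against 2.89%, 2.46–3.37). By level, *GJA1* was higher in the cells with *IBSP* (778 CPM, 705–856, against 636 CPM, 623–650), whereas *TNFSF11*, *MSX1* and *MGP* overlapped. *RUNX2* had too few UMIs to tell (1.87%, 0.512–4.72, against 1.02%, 0.773–1.33). *SPARC* was lower in the cells with *IBSP* (1837 CPM, 1724–1956, against 2288 CPM, 2262–2313). The cells with *IBSP* were nearly all called G1 (97.7% against 73.8%), and their median depth before thinning was 6118.5 UMIs against 6921.5.

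The cell cycle phase called from the expression of S and G2M genes moved with most members in BM. How many of all genes differed by phase was not counted, so this is not read as particular to the members. *ALPL* in BM had 124 CPM in cells called G1 (119–128), 32.3 in S (27.6–37.5) and 31.5 in G2M (27.4–36.0). *IBSP* had 45.02 CPM in G1 (42.6–47.6), 3.63 in S (2.19–5.67) and 1.89 in G2M (1.01–3.24), and *IFITM5* 18.2, 2.10 and 2.62 CPM. *SP7* (30.7, 5.16 and 8.89 CPM), *DLX5* (74.6, 19.5 and 26.7 CPM) and *SPP1* (22.6, 1.53 and 3.64 CPM) had the same order of G1 over the other phases. In PB this held for *ALPL* (355, 292 and 158 CPM) and *IFITM5* (41.0, 25.9 and 8.44 CPM), but not for *SP7* (34.7, 31.1 and 35.7 CPM), *DLX5* (40.8, 39.0 and 49.7 CPM) or *SPP1* (11.1, 10.2 and 10.4 CPM). *SPARC* had G1 over the other phases in every source. It had 2808, 2617 and 2141 CPM in AT, 2510, 1984 and 1597 in BM and 2669, 2466 and 1848 in PB. In AT, *IFITM5* did too (15.0, 10.1 and 6.39 CPM), and *ALPL* did not (3.02, 2.31 and 3.93 CPM). The sources differed in the cells called G1 (3049 in AT, 4167 in BM and 3777 in PB). Within the cells called G1 alone, 3 members were past 2-fold between PB and BM, 6 between PB and AT and 6 between BM and AT, as over all cells. Of all genes, 291 were past 2-fold higher in PB and 710 in BM in these G1 cells. Between PB and AT, 789 were higher in PB and 606 in AT, and between BM and AT 1124 in BM and 412 in AT.

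**Figure D5:**
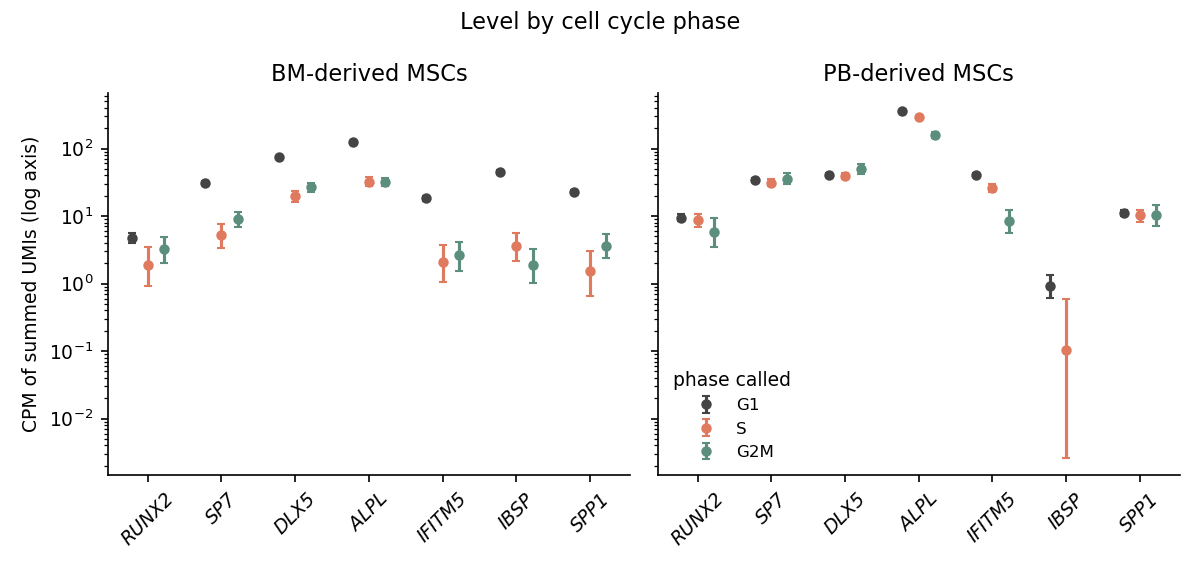
Level of 7 members in BM- and PB-derived MSCs by the cell cycle phase called for each cell, in CPM of summed UMIs (log axis), with exact 95% Poisson intervals. *IBSP* in G2M cells of PB had no UMI and is not drawn. In BM the G1 point lies highest for all 7 genes, clear of the other phases for every one but *RUNX2*, and in PB it is clear of both only for *ALPL* and *IFITM5*. The share of all genes with such an order was not counted.

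Other genes of the osteoblast programme were taken from 5 further lists. Their counts stand beside the shares over all genes given above, 4.59% higher in PB and 3.66% higher in AT between those sources, 6.46% higher in BM and 2.1% higher in AT between those, and 1.82% higher in PB and 4.65% higher in BM. Of 9 other osteoblast transcription factors, 7 were past 2-fold higher and 1 lower in PB than in AT, 4 were higher in BM than in AT, and 1 was higher in PB than in BM. The homeobox gene *MSX1* had 17.9 CPM in AT, 14.7 in BM and 79.6 in PB, so that AT and BM were close. *CBFB*, the partner of the RUNX factors (15.1, 64.5 and 32.0 CPM), and *TWIST1*, a factor known to restrain RUNX2 (18.1, 52.6 and 65.4 CPM), were lowest in AT but well above the floor there.

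Of 8 matrix and adhesion genes with a row, 3 were past 2-fold higher and 1 lower in PB than in AT, 3 higher and 1 lower in BM than in AT, and 1 higher and 1 lower in PB than in BM, where 8.25%, 8.57% and 6.47% of all genes passed in either direction. The gap junction gene *GJA1* had 65.4 CPM in AT, 592 in BM and 474 in PB, *OMD* had 7.23, 56.6 and 58.2 CPM, and the osteoblast cadherin *CDH11* had 24.4, 111 and 148 CPM. Osteoglycin (*OGN*) ran the other way, with 162, 102 and 21.9 CPM. Type I collagen, the bulk of bone matrix, was lowest in BM (*COL1A1* 6259, 2700 and 6036 CPM).

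Of 9 genes of mineralisation, 3 were past 2-fold higher and 1 lower in PB than in AT, and 1 each way between PB and BM, while of 8 tested between BM and AT 3 were higher and 1 lower in BM (all genes in either direction 8.25%, 6.47% and 8.57%). The gene lower in PB and in BM than in AT was matrix Gla protein (*MGP*), an inhibitor of mineralisation, with 372, 16.4 and 117 CPM in AT, BM and PB. The phosphate transporters *SLC20A2* (1.58, 13.2 and 4.25 CPM) and *SLC20A1* (14.3, 29.2 and 35.4 CPM) and the secretory kinase *FAM20C* (22.6, 32.1 and 44.0 CPM) were lowest in AT. Of the 13 signalling genes tested between BM and AT, 5 were past 2-fold, all higher in BM (all genes 6.46%), and of 12 tested between PB and AT, 8 were, all higher in PB (all genes 4.59%). Between PB and BM 1 passed each way. RANKL (*TNFSF11*), the osteoclast-inducing ligand that osteoblast lineage cells make, had 1.05 CPM in AT, 42.6 in BM and 61.2 in PB, while the parathyroid hormone receptor *PTH1R* was found mainly in PB (0.125, 0.746 and 12.5 CPM). *FGFR3* was highest in BM (0.225, 10.0 and 3.99 CPM), and *FGFR2* was level between BM and PB (1.68, 17.8 and 19.0 CPM).

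The 5 genes on the osteocyte list (*DMP1*, *MEPE*, *SOST*, *FGF23*, *DSPP*) had 1 UMI in BM, 1 in PB and none in AT. In the RefSeq annotation of assembly TB-T2T, *MEPE*, *DMP1* and *DSPP* lie in the same run of neighbouring genes as *IBSP* and *SPP1*, on what the deposited matrices give as chromosome 3, minus strand. *MEPE*, *DMP1* and *DSPP* thus had no UMI in the library in which *IBSP* had 1299 UMIs and *SPP1* 668. *DLX6*, the neighbour of *DLX5*, had 0.0500, 6.09 and 9.51 CPM, low in AT as *DLX5* was, and *PGGHG*, beside *IFITM5*, had 2.90, 5.37 and 5.19 CPM.

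The genes most like *ALPL* and *IFITM5* were ranked by Pearson's r of log2(1 + UMIs) across thinned cells, among genes found in at least 10% of them. For *ALPL* in PB they were *COL3A1* (0.18), *DCN* (0.17), *SPARC* (0.15), *B2M* (0.15) and *GSN* (0.14) of 2613 genes over 5318 cells. For *IFITM5* in PB they were *MXRA8* (0.13), *COL1A2* (0.11), *LRRC17* (0.11), *WFDC1* (0.11) and *S100A1* (0.11), with *ALPL* at rank 12 (0.08). For *ALPL* in BM they were *CYP1B1* (0.19), *CTSK* (0.15), *NUPR1* (0.15), *B2M* (0.14) and *CST3* (0.14) of 2905 genes over 5580 cells. All points of a ranking share a library, and values this low in sparse counts are given as a description only.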

How the data were processed

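The authors aligned the reads of the 3 libraries, pooled for sequencing, to EquCab3.0 with Cell Ranger and summarised UMIs by gene with ESAT. The deposited files hold raw UMI counts, a whole number for each gene in each barcode. The cell filter (2500 to 15000 UMIs, no more than 3% mitochondrial) left 39980656 (AT), 40239295 (BM) and 41622445 (PB) UMIs, so that 3 UMIs correspond to 0.0750, 0.0746 and 0.0721 CPM. No multiplet caller was run to remove cells. Scrublet scores (Scanpy 1.11.5) served 1 alternative. Phases were scored with Scanpy from the gene lists in Seurat 5.3.0 (41 S and 52 G2M genes found).

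Differences are of log2(CPM + 1) of summed UMIs, for genes with a UMI in at least 3 kept cells of either source. Intervals of a ratio of observed over expected cells treat the expected number as fixed and the observed number as Poisson (SciPy 1.17.1). TMM factors came from edgeR 4.0.16 in R 4.3.3. With 1 library per source no test was run. The arithmetic of ratios, thinning and co-detection was tested on simulated data. The members and lists were chosen with earlier results of these data known. Named were all members, up to 4 genes of each further list with at least 10 CPM in a source and the largest difference between sources, and the 5 genes most like *ALPL* and *IFITM5*, of which 1 list gene is not reported here; *COL1A1*, the neighbouring genes and the markers were named in addition. The cells with *IBSP*, and *BMP2*, *BMP4*, *TNFRSF11B* and *PHOSPHO1*, which fall outside this rule, were picked after values were seen. Alternatives covered the barcode filters, Scrublet scores, thinning, scaling, pseudocount, G1 cells, shared barcodes and seeds.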

Additional observations from a re-analysis of the deposited data

Results flagged for a closer look

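Barcodes with fewer than 2500 UMIs were left out of the comparisons, and in AT they held osteoblast lineage genes above the level of the kept AT cells for every member but *SPARC*. Neither here nor for the small BM and PB barcodes below was the same count made over all genes. The differences are thus not read as particular to the members. In the 6155 small AT barcodes *ALPL* had 271 CPM, *IFITM5* 36.4, *DLX5* 34.2, *SP7* 27.1, *SPP1* 10.7, *RUNX2* 7.42 and *IBSP* 1.27 CPM. Of the 1500 *ALPL* UMIs in them, 1499 lay in the 5716 barcodes that another library also held, and 1 in the 439 found in AT alone. Where the PB cell of the same barcode had *ALPL*, 24.5% of these small AT barcodes had it too, against 9.21% where the PB cell had none. The shares were 9.40% and 1.54% for *IFITM5*, 5.09% and 2.56% for *DLX5*, 3.13% and 2.49% for *SP7* and 2.79% and 0.793% for *SPP1*.

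In the 526 small BM barcodes, *ALPL* had 133 CPM (108–163) and *IFITM5* 29.5 CPM (18.2–45.03), each above the kept BM cells, and nearly all of these barcodes (515) were in no other library. *SPP1* (5.61 CPM, 1.53–14.4) and *SPARC* (2007 CPM, 1905–2114) were below the kept BM cells, and the intervals of the other members overlapped those of the kept cells. In the 554 small PB barcodes *RUNX2* had 20.8 CPM (11.1–35.5) from 13 UMIs, above the kept PB cells. The cause was not tested for any of these.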

How the results depend on the processing

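The counts of members past 2-fold moved by over 1.5 times under the pseudocount of 25 CPM alone among the alternatives run, to 3 for PB against AT and 3 for BM against AT, from 6 each. This setting shrinks differences of low genes by construction. Over all genes, those past 2-fold between PB and AT went from 729 higher in PB and 581 in AT to 108 and 71. Between BM and AT they went from 1041 higher in BM and 339 in AT to 151 and 57. For PB against BM the count of members stayed at 2 to 4. Using all barcodes with at least 500 UMIs, which adds the small AT barcodes shared with PB, lowered *ALPL* to 3.25, *SP7* to 3.08, *DLX5* to 3.03 and *SPP1* to 2.02 (PB minus AT), lowered them to 1.503, 2.59, 3.55 and 2.58 (BM minus AT), and took *RUNX2* in BM minus AT below the threshold (0.98). Leaving out AT barcodes present in another library, an alternative chosen after seeing the data where PB is concerned, raised *ALPL* to 6.77 (PB minus AT), and in both BM and AT it gave 5.02 (BM minus AT). No member past 2-fold changed sign under any alternative. Of 256 single differences recomputed, 190 stayed within the counting interval and 66 left it.

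The ratio of cells with both *ALPL* and *IFITM5* left its counting interval in PB with at least 5000 UMIs thinned to 5000 (1.07), and in AT with at least 2 *ALPL* UMIs (6.75, from 1 cell), with another random seed (0), without barcodes kept in another library (0; chosen after seeing the data, as was the count of all pairs in G1 cells) and without barcodes present in another library (0). In BM it ran from 1.32 in G1 cells to 1.89 without the mitochondrial limit.

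Leaving out every barcode present in another library was not possible for PB, since no kept PB barcode remained. No paired analysis was possible because each source had 1 library, and for the same reason no library was left out in turn. Depth was similar in the sources (3 UMIs are 0.0750, 0.0746 and 0.0721 CPM), and values resting on few UMIs, such as *SP7* (8) and *DLX5* (12) in AT, are the least precise.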

Other observations

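Genes of bone-resorbing cells were mostly missing. *OCSTAMP* and *CALCR* had no UMI in any source, *ACP5* had 9 UMIs in AT and none in BM or PB, and *DCSTAMP* had 2 UMIs in BM alone. Cathepsin K (*CTSK*), which stromal cells also make, had 62.5 CPM in AT, 471 in BM and 126 in PB, and the gelatinase *MMP9* had 2.68, 3.58 and 18.2 CPM. Of the 5 cartilage markers with a row, *COL2A1* and *COL10A1* had no UMI, *ACAN* had 2, 1 and 42 UMIs, *COMP* had 15, 10 and 5 UMIs, and *SOX9* had 1.58, 12.7 and 5.89 CPM. The smooth muscle list of 5 genes summed to 1459, 1118 and 700.3 CPM and the adipocyte list of 6 genes to 3.50, 7.43 and 0.240 CPM, and their part in the differences of the osteoblast lineage genes was not tested.

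Some further genes of the osteoblast lists were chosen after their values were seen. Of these, the bone morphogenetic protein genes *BMP2* (0.100, 8.05 and 4.54 CPM) and *BMP4* (1.10, 14.0 and 7.57 CPM) were lowest in AT and highest in BM. Osteoprotegerin (*TNFRSF11B*), the decoy receptor for RANKL, had 5 UMIs in BM and none in AT or PB. *PHOSPHO1*, a phosphatase of mineralising vesicles, had 1, 61 and 70 UMIs.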
